A study of Mus musculus with 6 samples.

Results

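The products of 9 genes that coat or build lipid droplets were followed as mRNA in adipocytes with and without Cre-mediated targeting of *Lats1* and *Lats2*, the kinases of the Hippo pathway that restrain YAP and TAZ. They are the 5 perilipins *Plin1*, *Plin2*, *Plin3*, *Plin4* and *Plin5*, the droplet fusion gene *Cidec*, and the droplet assembly genes *Bscl2*, *Fitm1* and *Fitm2*. They were taken by gene symbol from a table of 37384 symbols, and all 9 had a row. RNA came from inguinal subcutaneous white adipose tissue (scWAT) of male mice at postnatal day 7, and each library held the adipocytes of 4 pooled mice. The 3 L1L2-FF libraries came from Lats1f/fLats2f/f mice, which carry both floxed alleles and no Cre. The 3 L1L2-AKO libraries came from Lats1f/fLats2f/fAdipoqCre mice, which carry the same floxed alleles and Cre under the *Adipoq* promoter, active in adipocytes. The floxed lines are of mixed background, C57BL/6-129-CD1 for *Lats1* and C57BL/6-129 for *Lats2*. Adipocytes were freed with collagenase and collected by flotation, so other cells that float with them or cling to them also gave RNA.

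A lipid droplet is a core of triglyceride and sterol ester under a single layer of phospholipid, and it buds from the endoplasmic reticulum (ER), where seipin, the product of *Bscl2*, and the FIT proteins act. Perilipins then sit on its surface. In white adipocytes PLIN1 guards the large droplet from lipases and, when phosphorylated, lets lipolysis proceed, while CIDEC passes lipid from smaller to larger droplets and so builds the single large droplet of the white fat cell. PLIN2 and PLIN3 coat droplets in many cell types, macrophages among them, PLIN4 is most abundant in white adipocytes and PLIN5 in tissues that burn fat.

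Total counts ranged from 30548473 to 32107917 per library, and replicates of a genotype differed by more than sampling noise. The targeted genes were read first. *Lats1* stood at 76.1, 94.3 and 78.4 CPM (counts scaled to library size with TMM) in the L1L2-FF libraries and at 38.9, 41.2 and 40.5 CPM in the L1L2-AKO libraries, a log2 fold change of -1.04 (SE 0.118, edgeR adjusted p = 0.00131). The *Lats2* total rose. It was 74.9, 85.7 and 68.5 CPM in L1L2-FF and 96.2, 126 and 135 CPM in L1L2-AKO (log2 fold change 0.64, SE 0.156, edgeR adjusted p = 0.0278). The counts are of whole genes, so the recombined part of *Lats2* was not read apart from the rest. The total therefore cannot show whether that part was lost, and it does not test the genotype. By PCR, the paper reports less mRNA of both kinases in scWAT adipocytes of L1L2-AKO mice at this age. L1L2-AKO below means the libraries that carry that label. Of 12 mature adipocyte markers, *Car3*, *Lpl* and *Fabp4* were the most abundant. They averaged 17500, 11700 and 8160 CPM in L1L2-FF and 6900, 16900 and 6610 CPM in L1L2-AKO. None of the 12 was at 0 in all libraries. The same held for the marker lists of the other cell types, so this does not check the adipocyte label. Over the 15674 genes tested with edgeR (quasi-likelihood, Benjamini-Hochberg), 9.28% of genes were higher and 7.18% lower in L1L2-AKO at an adjusted p under 0.05, 16.5% in either direction. The genotypes did not overlap for 36.4% of genes.

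The promoters of the 9 genes were read for the sites of the factors that bear on the design, the TEAD factors through which YAP and TAZ bind DNA and the PPAR-RXR pairs that drive adipocyte genes. RefSeq held 13 starts for them on GRCm38.p6. The TEAD motif GGAATG, searched on both strands from 250 bases before to 50 after the start, was found at 1 of the 13, in *Cidec*, against 14.663% of 32851 promoters. Copies of AGGTCA repeated with 1 base between them, as PPAR-RXR pairs bind, with at most 2 mismatches in 12 positions on either strand, were also found at 1 of the 13, in *Plin2*, against 3.86% of promoters. The 2 matches lie in different promoters and so do not overlap. A match describes letters and not binding. The 250 bases before the start are shown for these 2 genes, with the match in capitals, and for *Plin1*, which held neither motif and had the smallest p of the 8 genes tested. All 3 run 5′ to 3′ on the minus strand, *Plin1* at chr7:79732777-79733026, *Plin2* at chr4:86670060-86670309 and *Cidec* at chr6:113435761-113436010.
Plin1: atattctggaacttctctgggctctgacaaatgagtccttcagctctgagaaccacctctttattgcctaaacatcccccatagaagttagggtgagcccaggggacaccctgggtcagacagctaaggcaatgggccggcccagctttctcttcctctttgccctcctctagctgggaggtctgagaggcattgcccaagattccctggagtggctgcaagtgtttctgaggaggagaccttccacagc
Plin2: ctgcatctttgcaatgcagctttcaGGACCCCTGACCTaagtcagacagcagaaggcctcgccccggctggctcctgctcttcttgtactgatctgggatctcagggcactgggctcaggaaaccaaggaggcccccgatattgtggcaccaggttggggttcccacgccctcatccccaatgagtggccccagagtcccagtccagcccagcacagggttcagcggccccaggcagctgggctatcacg
Cidec: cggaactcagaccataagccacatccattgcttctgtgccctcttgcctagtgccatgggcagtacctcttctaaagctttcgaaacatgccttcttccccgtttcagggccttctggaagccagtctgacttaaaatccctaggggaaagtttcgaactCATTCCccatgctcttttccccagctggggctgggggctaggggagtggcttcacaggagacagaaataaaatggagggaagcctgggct
The *Cidec* match ran from 90 to 85 bases before the start, and the *Plin2* match, with 2 mismatches, from 225 to 213 bases before it. Both read on the minus strand of the promoter as printed.

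None of the 8 perilipin and droplet assembly genes that passed the filter on low counts differed between the genotypes at an adjusted p under 0.05 in edgeR, beside 16.5% of all genes tested. Of the 8, 1 gene, *Plin1*, had an unadjusted p under 0.05, as did 4828 of all genes. DESeq2 called 1, *Plin1*, and limma-voom called 0. The genotypes did not overlap for 1 gene of the 8, *Plin1*, beside 36.4% of all genes, so a lack of overlap was common in these data. The 8 fitted log2 fold changes had a median of -0.06, with 3 above and 5 below 0, beside a median of -0.02 over all genes. The SE of the log2 fold change ran from 0.127 for *Plin3* to 0.274 for *Plin2*, so the size of change that could be detected differed between the genes.

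**Figure D1:**
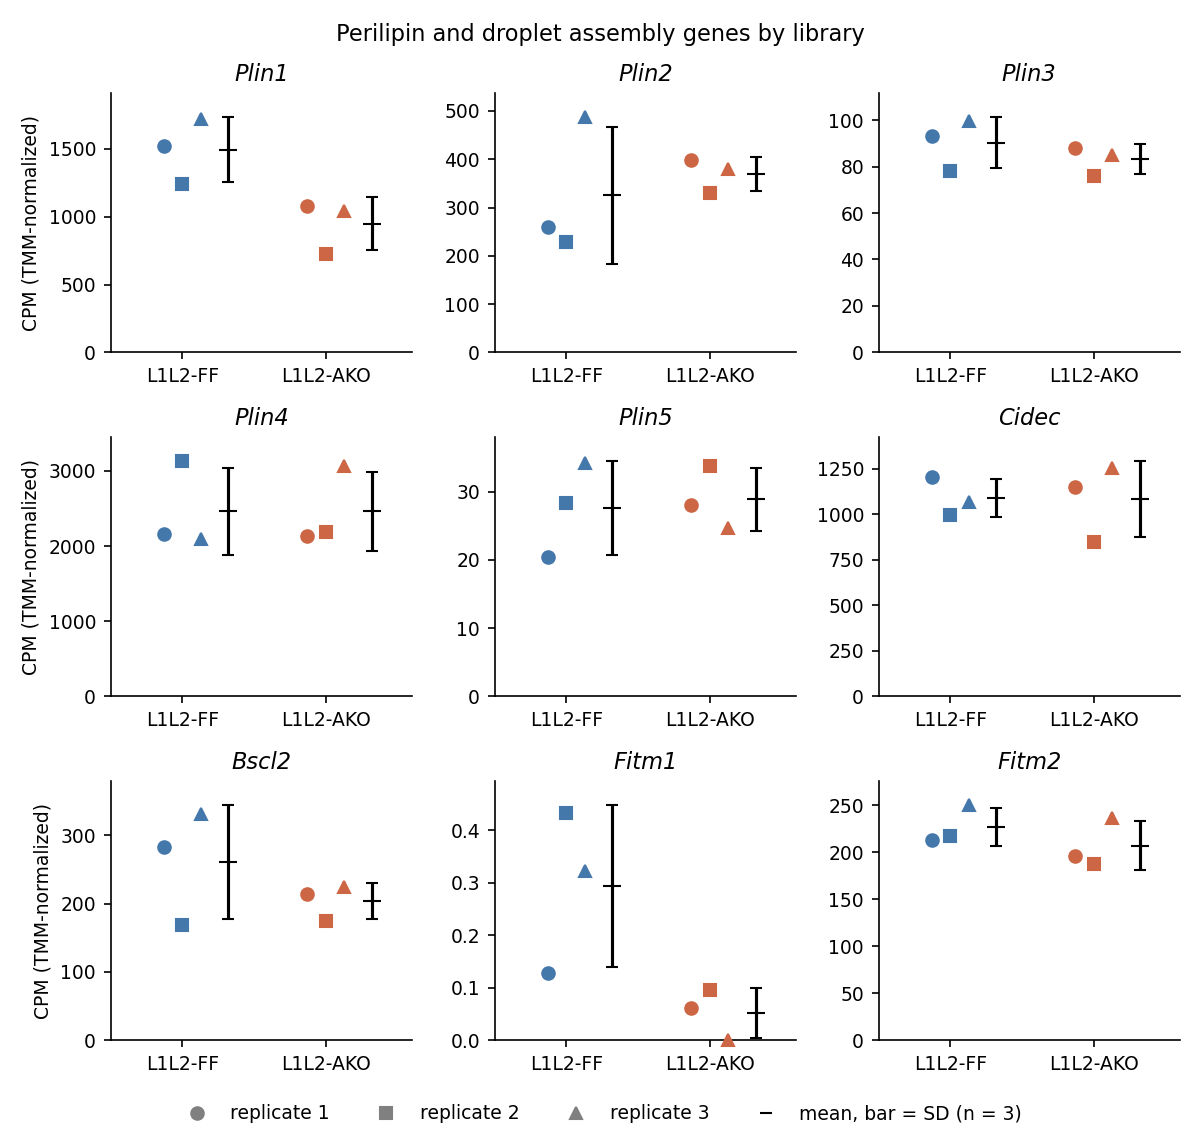
CPM of the 9 genes in each library, with a linear axis from 0 for each gene, points shaped by replicate number and bars for the mean ± SD of 3 libraries. *Plin1* is the gene tested in which all L1L2-AKO points (726.3 to 1078 CPM) sit below all L1L2-FF points (1242 to 1719 CPM), and *Plin2* replicate 3 of L1L2-FF stands at 487.2 CPM.

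*Plin1*, the perilipin of the large adipocyte droplet, lies at chr7:79720218-79732903 on the minus strand of mm10. The L1L2-FF libraries had 1519, 1242 and 1719 CPM and the L1L2-AKO libraries 1078, 726.3 and 1041 CPM. Every L1L2-AKO library was below every L1L2-FF library, and the means were 1493 ± 239.3 and 948.5 ± 193.3 (SD, n = 3 each). The log2 fold change was -0.65 (SE 0.21, 95% interval -1.14 to -0.17), a level of 0.635 times that in L1L2-FF with an interval of 0.455 to 0.888, and the edgeR adjusted p was 0.07. The call turned on the settings. The gene passed the threshold in 5 of 15 alternatives, with an adjusted p of 0.0151 in DESeq2 and of 0.0397 in edgeR without L1L2-FF replicate 2 (log2 fold change -0.77), and the adjusted p ranged from 0.0151 to 0.217 over all 15. The fitted value was below 0 in each of the 15. Of the 12 markers of mature adipocytes, 8 were lower in L1L2-AKO and 0 higher at an edgeR adjusted p under 0.05, beside 7.18% of all genes lower. Their median log2 fold change was -1.23. Their summed level was 40810 to 57210 CPM in L1L2-FF and 31680 to 41650 CPM in L1L2-AKO, with overlap between the genotypes. Not all went down: *Lpl*, the lipoprotein lipase, had 11700 CPM in L1L2-FF and 16900 in L1L2-AKO without overlap (log2 fold change 0.52, edgeR adjusted p = 0.272), and *Lep*, which encodes leptin, had 694 and 924 CPM (0.41, adjusted p = 0.356). *Lep* was named after its values were seen. In bulk RNA, fewer cells of a type and less RNA per cell cannot be told apart, and the part of the adipocyte share in the *Plin1* values was not tested.

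*Plin4*, the other abundant perilipin of white fat, had means that lay close together. Its CPM was 2157, 3135 and 2095 in L1L2-FF and 2136, 2183 and 3072 in L1L2-AKO. Each genotype held 1 high library, replicate 2 of L1L2-FF and replicate 3 of L1L2-AKO, and 2 lower ones close to each other. The means were 2462 ± 583.4 and 2463 ± 527.2 (SD, n = 3 each). The log2 fold change was 0.0006 (SE 0.239, 95% interval -0.55 to 0.55), which allows levels from 0.683 to 1.47 times that in L1L2-FF. *Plin4* lies at chr17:56100591-56109803, and 7.608% of its 50-base stretches recur within its own transcripts, the repeats for which this protein is known.

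*Plin2*, the coat of small droplets in many cell types, had an estimate that turned on 1 library. The L1L2-FF values were 259.1, 229.2 and 487.2 CPM and the L1L2-AKO values 398.9, 329 and 380.1 CPM. Replicates 1 and 2 of L1L2-FF were below all L1L2-AKO libraries and replicate 3 was above them all, 2.13 times replicate 2. With all libraries the log2 fold change was 0.18 (SE 0.274, 95% interval -0.45 to 0.82, edgeR adjusted p = 0.709). Without L1L2-FF replicate 3 it was 0.59 (SE 0.145, edgeR adjusted p = 0.0403), and without L1L2-FF replicate 2 it was -0.02. *Plin2* lies at chr4:86648386-86670060, and 2.567% of its 50-base stretches are shared with other genes, the most with *Gm12551*.

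Macrophages also make PLIN2, and their markers differed between the genotypes. Of 12 macrophage markers 11 rose, beside 9.28% of all genes higher, with a median log2 fold change of 1.48. Their summed level was 277.8 to 536.2 CPM in L1L2-FF and 991.8 to 1105 CPM in L1L2-AKO. *Mrc1*, the mannose receptor of tissue macrophages, stood at 71.5 CPM in L1L2-FF and 256 in L1L2-AKO (log2 fold change 1.84, edgeR adjusted p = 0.00213). No marker of the list was at 0 in all libraries. By replicate, the macrophage sum was 367.8, 536.2 and 277.8 CPM in L1L2-FF and 1006, 1105 and 991.8 CPM in L1L2-AKO. The part of macrophage RNA in the *Plin2* values was not tested.

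*Plin3* and *Plin5* were the perilipins with the lowest CPM. *Plin3*, a coat of nascent droplets at chr17:56277476-56292873, had 92.92, 78.14 and 99.71 CPM in L1L2-FF and 88.17, 75.81 and 85.15 CPM in L1L2-AKO (log2 fold change -0.12, SE 0.127, 95% interval -0.41 to 0.17). *Plin5*, which ties droplets to mitochondria in oxidative tissue, had 20.46, 28.36 and 34.16 CPM in L1L2-FF and 28.11, 33.84 and 24.68 CPM in L1L2-AKO (log2 fold change 0.06, SE 0.203, 95% interval -0.40 to 0.53). The genotypes overlapped for both, and the edgeR adjusted p was 0.585 for *Plin3* and 0.873 for *Plin5*. *Plin5* lies at chr17:56111601-56117596, next to *Plin4* on the same strand.

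*Cidec* values of the genotypes overlapped. The gene had 1204, 996.4 and 1069 CPM in L1L2-FF and 1152, 850.6 and 1253 CPM in L1L2-AKO, and the L1L2-AKO values spanned those of L1L2-FF. The log2 fold change was -0.01 (SE 0.187, 95% interval -0.44 to 0.42, edgeR adjusted p = 0.988). The gene lies at chr6:113424634-113435760. The TEAD motif printed above was at 1 of its RefSeq starts and not at the other. Its relative *Cidea*, a fusion protein of brown and beige adipocytes, fell from 115 ± 40 to 47.9 ± 15.2 CPM (log2 fold change -1.27, SE 0.288, edgeR adjusted p = 0.0217). The *Cidea* call was lost without L1L2-AKO replicate 1 or 3, with an adjusted p of at most 0.0807. *Cideb*, the third member of the family and known from liver, averaged 0.19 CPM in L1L2-FF and 0.191 in L1L2-AKO and was not tested.

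*Bscl2* encodes seipin, which holds the neck between the ER and a growing droplet, and lies at chr19:8837467-8848683. It had 283.5, 169.1 and 331.8 CPM in L1L2-FF and 213.5, 174 and 224.9 CPM in L1L2-AKO. Replicate 2 of L1L2-FF was the lowest of all libraries, while the other L1L2-FF replicates were above all of L1L2-AKO. The log2 fold change was -0.36 (SE 0.24, 95% interval -0.91 to 0.20, edgeR adjusted p = 0.366), and without L1L2-FF replicate 2 it was -0.59 (SE 0.155, edgeR adjusted p = 0.0366). Exons of *Gng3* on the other strand cover 6.749% of its exon length, and *Gng3* itself had at most 1.1 CPM in any library. Of the 50-base stretches of *Bscl2*, 4.504% are shared with other genes, the most with *AC129217.1*, which overlaps it and has no row in the table.

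The FIT genes bind triglyceride at the ER and help it leave as a droplet. *Fitm2*, the broadly expressed one, at chr2:163466379-163472629, had 212.8, 216.9 and 250.4 CPM in L1L2-FF and 196.3, 187.4 and 236.5 CPM in L1L2-AKO, with overlap (log2 fold change -0.13, SE 0.137, 95% interval -0.45 to 0.18, edgeR adjusted p = 0.573). *Fitm1*, known from skeletal muscle and heart, at chr14:55575617-55576954, was close to the floor, with 4, 14 and 10 counts in L1L2-FF and 2, 3 and 0 counts in L1L2-AKO. It did not pass the filter. Summed over libraries, 28 counts stood against 5, a ratio of 0.179 with an exact 95% interval of 0.054 to 0.47 that covers counting error and not the spread between libraries. DESeq2, which kept the gene, gave an adjusted p of 0.142. The summed level of skeletal muscle markers was 73.9 to 118.6 CPM in L1L2-FF and 41.14 to 66.16 CPM in L1L2-AKO. Most of that sum came from 1 gene, in which the genotypes overlapped. The edgeR test called 0 of the 7 it tested of 12 listed, with a median log2 fold change of -1.20. Of these, 4 had an unadjusted p under 0.05, DESeq2 called 4 of the list and limma-voom 1. *Acta1*, the skeletal actin, averaged 8.25 and 2.6 CPM. The part of muscle RNA in the *Fitm1* counts was not tested. An antisense gene, *Gm15932*, covers 11.226% of the *Fitm1* exons and had up to 19 counts, and without a stated strand setting its reads cannot be told apart from those of *Fitm1*.

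**Figure D2:**
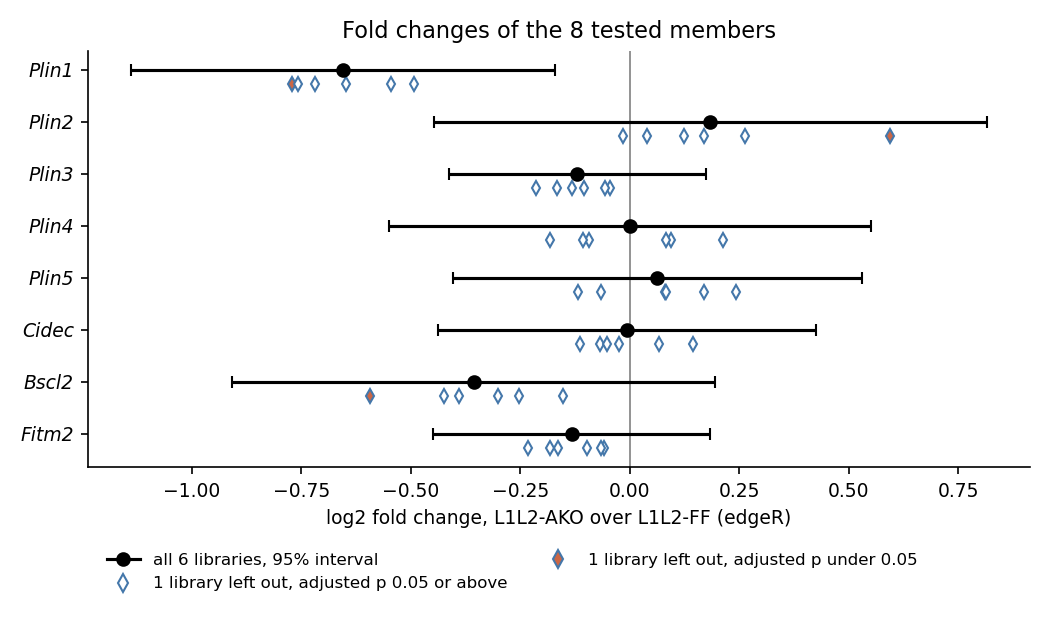
Log2 fold change of L1L2-AKO over L1L2-FF for the 8 genes tested, with 95% intervals from all 6 libraries (black) and the value with each library left out in turn (diamonds, filled where the adjusted p is under 0.05). The *Plin1* interval, -1.14 to -0.17, is the 1 that does not span 0, and filled diamonds appear for *Plin1*, *Plin2* and *Bscl2* only.

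Levels of different genes were set side by side per length, as TPM (transcript abundance scaled to a fixed sum) over the exons of GENCODE M21. In L1L2-FF the order was *Cidec* (1701 ± 128.5 TPM), *Plin4* (1248 ± 369.5), *Plin1* (927 ± 102), *Plin2* (265.6 ± 104.1), *Fitm2* (165.5), *Bscl2* (127.2), *Plin3* (68.89), *Plin5* (38.43) and *Fitm1*, whose highest library had 1.38 TPM. Neighbours whose libraries overlapped were *Cidec* and *Plin4*, *Plin4* and *Plin1*, and *Fitm2* and *Bscl2*. The order was the same in L1L2-AKO, where *Cidec* and *Plin4* were the only neighbours to overlap. *Cidec* ranked 42 and *Plin4* 65 of 15648 genes by TPM in L1L2-FF. *Plin1* ranked 96 in L1L2-FF and 163 in L1L2-AKO, and *Plin2* 451 and 375.

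The mix of perilipins was then compared, each as its share of the 5, in counts per kilobase. *Plin1* made up 40.4%, 29.4% and 40.5% in L1L2-FF and 30.8%, 23.5% and 24.9% in L1L2-AKO, with means of 36.8% ± 6.39 and 26.4% ± 3.88 (SD, n = 3 each) and overlapping ranges (exact permutation test, two-sided, p = 0.2, 0.5 adjusted over 5 shares). *Plin2* made up 9.13%, 7.18% and 15.2% in L1L2-FF and 15.1%, 14.1% and 12.1% in L1L2-AKO (exact permutation p = 0.4, adjusted 0.5). *Plin4* was the largest share in 5 libraries and averaged 48.5% ± 10.2 and 55.1% ± 5.25 (exact permutation p = 0.4). *Plin3* and *Plin5* stayed under 4%. With 3 against 3 libraries no p under 0.1 can be had, and the 5 shares sum to 100% and so move together. The 5 genes held 0.342% to 0.499% of all counts.

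Ratios of *Plin2* and of *Cidec* to *Plin1* within each library did not overlap between the genotypes. These ratios were chosen after the values were seen and are given without a test. *Plin2* per *Plin1* transcript was 0.226, 0.244 and 0.375 in L1L2-FF and 0.49, 0.6 and 0.483 in L1L2-AKO. The geometric means, 0.275 and 0.522, differed 1.9-fold. *Cidec* per *Plin1* was 1.99, 2.01 and 1.56 in L1L2-FF and 2.68, 2.93 and 3.01 in L1L2-AKO, also without overlap and 1.56-fold apart. *Plin4* per *Plin1* overlapped, at 1.14, 2.03 and 0.981 against 1.59, 2.42 and 2.37. All 3 ratios share the *Plin1* values, which by themselves did not overlap between the genotypes, as for 36.4% of all genes. How many other genes would separate as a ratio to *Plin1* was not computed. Whether the 2 genes of a ratio changed unequally was not tested.

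**Figure D3:**
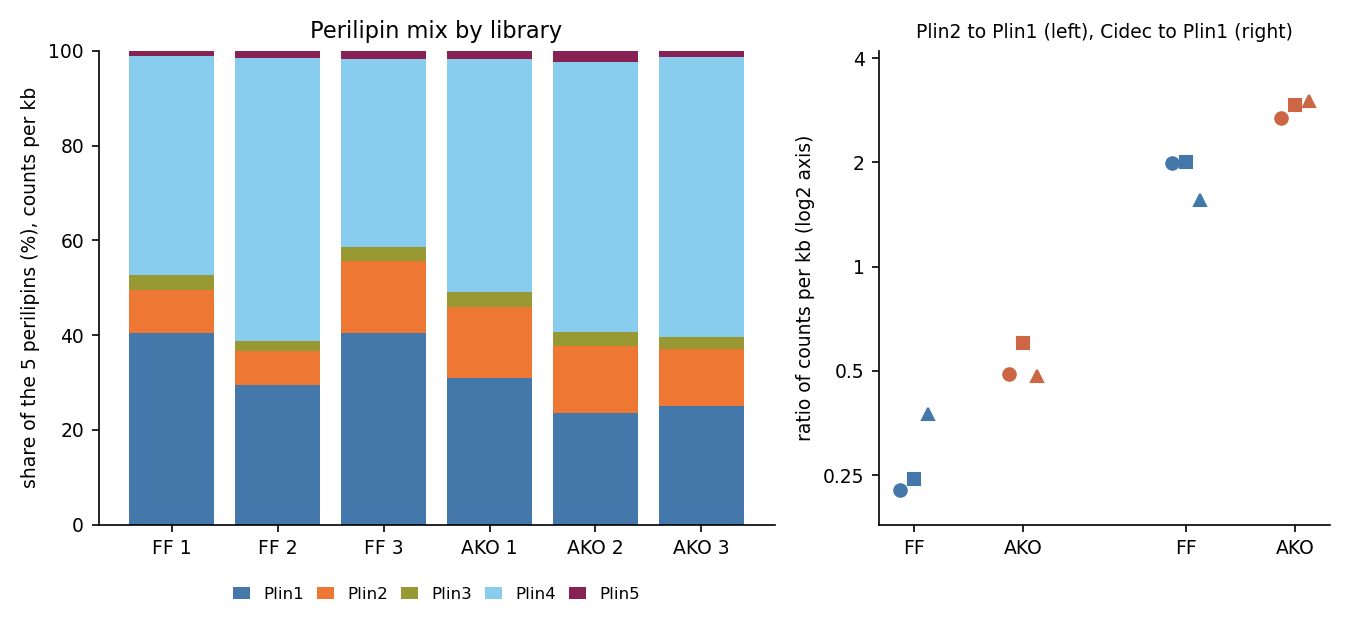
Left, share of each perilipin in the 5 together by library, in percent of counts per kilobase, stacked to 100%. Right, *Plin2* to *Plin1* and *Cidec* to *Plin1* by library on a log2 axis, where the L1L2-AKO points (0.483 to 0.6, and 2.68 to 3.01) lie above the L1L2-FF points (0.226 to 0.375, and 1.56 to 2.01).

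The genes whose log2 CPM ran most like that of *Plin1* over the 6 libraries, among 5715 whose log2 CPM averaged 5 or more, were *Hebp1* (Pearson r 0.9995), *Zbtb41* (0.9986), *Phka2* (0.9963), *Mtor* (0.9945) and *Pfkfb1* (0.9918). Those most like *Plin2* were *Ddx39b* (0.9948), *Pcyt1a* (0.989), *Eif3c* (0.9859), *Gda* (0.985) and *Vps52* (0.9842). *Pcyt1a* makes phosphatidylcholine for the surface of growing droplets and was on the droplet list below. These are descriptions over 6 points that share library and genotype.

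Beyond these 9 genes, 47 others of the droplet were listed by role, of which 45 were tested. Of these, 2 rose and 11 fell in L1L2-AKO, 13 called in all or 28.9%, beside 16.5% of all genes, and their median log2 fold change was -0.34 beside -0.02. The genotypes did not overlap for 23 of the 45, beside 36.4% of all genes. The list counts changed with single libraries: leaving out L1L2-FF replicate 1 gave 6 calls, leaving out L1L2-AKO replicate 2 gave 5, and 3 stood once its replicate 3 was left out. Calls over all genes fell from 2580 to 1290, 1281 and 1374 in the same fits, so calls were lost beyond this list as well. Whether this list lost a larger share of its calls was not tested. Of the 13 calls, 3 held whichever library was left out, those of *Gpat3*, *Vps13a* and *Spart*.

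Genes that make triglyceride and pass it to the droplet were the group with most calls, 5 lower of 10 and 0 higher. This stood beside 7.18% of all genes lower, and the group median was -0.71. *Gpat3*, the acyltransferase of the first step of glycerolipid synthesis, fell from 223 ± 34 to 67.3 ± 13.2 CPM (log2 fold change -1.73, SE 0.185, edgeR adjusted p = 0.0011). *Gpat4*, which acts in the same step and moves onto growing droplets, fell from 138 to 90.2 CPM (-0.62, adjusted p = 0.0144). *Lpin1*, the phosphatidate phosphatase, fell from 231 to 115 CPM (log2 fold change -1.0, adjusted p = 0.0198). *Dgat2*, which adds the last acyl chain, fell from 1210 ± 476 to 410 ± 220 CPM (-1.56, SE 0.421, adjusted p = 0.0405). *Ldaf1*, the partner of seipin, listed in the table under an older symbol, fell from 19.9 to 11.5 CPM (-0.80, adjusted p = 0.0473). *Agpat2* and *Dgat1* did not pass, at 711 ± 501 against 408 ± 157 CPM (adjusted p = 0.328) and 219 against 143 CPM (adjusted p = 0.0761). The highest adjusted p with 1 library left out was 0.14 for *Dgat2*, 0.162 for *Ldaf1*, 0.0733 for *Gpat4* and 0.0573 for *Lpin1*, against 0.00805 for *Gpat3*. The calls of these 4 genes were lost without L1L2-FF replicate 1 and without replicate 2 or 3 of L1L2-AKO. That of *Dgat2* was also lost without L1L2-FF replicate 3, and that of *Ldaf1* without L1L2-FF replicate 2 or L1L2-AKO replicate 1.

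Of the 7 genes of droplet lipolysis, with a median of -0.58, DESeq2 called 3 and limma-voom 0. In edgeR 1 fell and 0 rose, beside 7.18% of all genes lower. It was *Pnpla3*, a lipase relative that binds the ATGL cofactor, at 333 ± 217 and 79.9 ± 46.3 CPM (log2 fold change -2.06, SE 0.586, edgeR adjusted p = 0.0484), and its genotypes overlapped. Its call was lost without L1L2-FF replicate 1 or 3 or L1L2-AKO replicate 2 or 3, with an adjusted p of at most 0.161. The lipases that act in turn on stored fat did not pass the test. *Pnpla2*, which encodes ATGL, had 1610 and 1050 CPM (-0.62, adjusted p = 0.117), *Lipe*, the hormone-sensitive lipase, 1260 and 842 CPM (-0.58, adjusted p = 0.0775) and *Mgll*, the monoglyceride lipase, 1650 and 1340 CPM (-0.30, adjusted p = 0.337). The first 2 of these had no overlap between genotypes, as for 36.4% of all genes.

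Other coat proteins and the genes of droplet contacts gave 3 calls among 17 tested genes, a share near the 16.5% of all genes. *Faf2*, which takes droplet proteins for degradation, was the 1 of 7 coat genes called and rose from 65.5 to 96.9 CPM (log2 fold change 0.57, edgeR adjusted p = 0.0175), a call lost without L1L2-FF replicate 1 or L1L2-AKO replicate 3. *Pnpla8* and *Rab18*, the most abundant of that list, had -0.44 (adjusted p = 0.123) and 0.18 (adjusted p = 0.351). Among 10 contact and traffic genes, *Spart*, which encodes spartin, an adaptor that brings ubiquitin ligases to droplets, and is also listed under an older symbol, rose from 44.7 ± 6.59 to 96.9 ± 22.6 CPM (log2 fold change 1.12, SE 0.193, adjusted p = 0.00723), and *Vps13a*, a lipid carrier at contact sites, fell from 43.6 to 26.3 CPM (-0.73, adjusted p = 0.00962). *Arf1*, *Copb1* and *Vps13c* had 0.28, 0.27 and -0.33, with adjusted p values of 0.285, 0.176 and 0.226.

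Of 10 transcription factors known to act on perilipin genes, 3 fell and 0 rose, beside 7.18% of all genes lower, with a median of -0.34. *Pparg*, the main regulator of adipocyte genes, fell from 375 ± 11.4 to 250 ± 12.6 CPM (log2 fold change -0.59, SE 0.115, edgeR adjusted p = 0.0122). *Srebf1*, a driver of fatty acid synthesis, fell from 441 to 265 CPM (-0.73, adjusted p = 0.0267), and *Ppara*, of fatty acid oxidation, from 17 to 9.46 CPM (-0.84, adjusted p = 0.017). *Cebpa*, the most abundant of them, had 639 and 495 CPM (-0.37, adjusted p = 0.211). The 3 calls were lost without L1L2-AKO replicate 2 or 3, that of *Pparg* also without L1L2-FF replicate 1 and that of *Srebf1* also without L1L2-AKO replicate 1, and with 1 library left out the adjusted p reached 0.0697 for *Pparg*, 0.113 for *Srebf1* and 0.07 for *Ppara*.

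**Figure D4:**
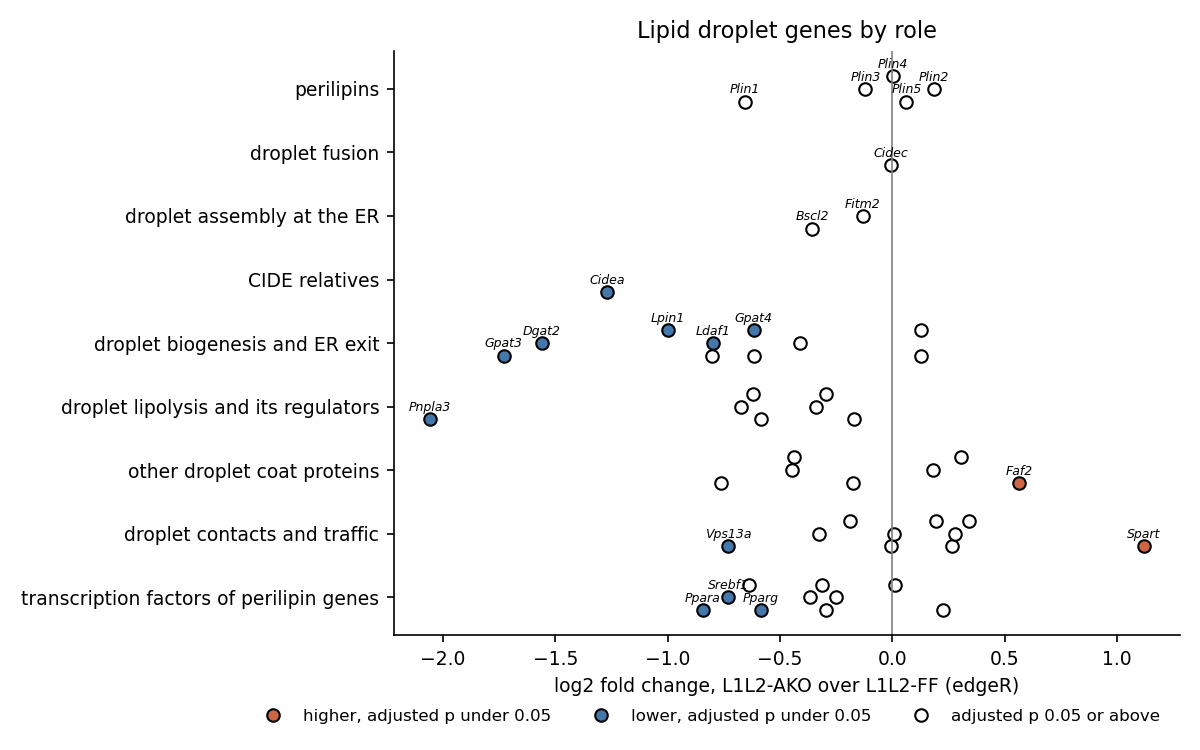
Log2 fold change of L1L2-AKO over L1L2-FF for the tested lipid droplet genes by role, blue for lower and red for higher at an adjusted p under 0.05 and open for the rest. The 9 genes described first are in the top 3 rows (8 tested, all open), and the blue points include 5 of 10 genes of droplet biogenesis and 3 of 10 transcription factors.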

How the data were processed

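RNA of inguinal scWAT adipocytes, floated from male P7 mice, was analysed as gene counts in 3 L1L2-FF and 3 L1L2-AKO libraries, grouped by the submitters' titles. The authors aligned paired-end BGISEQ-500 reads of oligo(dT)-selected mRNA to mm10 with HISAT2 2.1.0 and processed them with StringTie 1.3.5. They deposited raw counts, 1 row per symbol, not normalized. Annotation, counting program and strand setting are not given in the sources used here.

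Counts were tested as deposited in R 4.3.3 with edgeR 4.0.16 (filterByExpr, minimum count 10, minimum total 15, keeping 15674 of 37384 symbols, TMM, two-sided quasi-likelihood test, Benjamini-Hochberg adjustment over all tested genes, threshold 0.05). DESeq2 1.42.0 and limma 3.58.1 (voom) were alternatives, with other normalizations and filters, a replicate block and each library left out. Intervals are 95%. TPM used GENCODE M21 exon lengths, on the authors' build, and 75 symbols were not found. *Ldaf1* was matched to *Tmem159* and *Spart* to *Spg20*. Promoters came from RefSeq. The test was checked on simulated data, and plots used matplotlib 3.10.9. Shares were compared with exact permutation tests.

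The 9 genes, the lists and the tests were chosen with earlier results of these data known. All 9 genes were to be named, the called droplet genes, the 3 most abundant genes of each list, and the 5 genes most like *Plin1* and *Plin2*; 1 marker gene that this rule drew is not reported here. The ratios to *Plin1* were added after the data were seen. Totals of 30548473 to 32107917 counts set the counting precision. The replicates come from separate pools of mice, and p-values measure the spread between these pools.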

Additional observations from a re-analysis of the deposited data

How the results depend on the processing

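The count of perilipin and droplet assembly genes called was 0 in edgeR and moved to 1, *Plin1*, with upper-quartile factors, library size alone, DESeq2's Wald test and replicate number as a block, and to between 0 and 2 with 1 library left out. The other 47 droplet genes gave 3 to 16 calls with 1 library left out, 1 to 4 higher and 2 to 14 lower. Over all genes those fits gave 1281 to 2845 calls. Of 120 values for the 8 genes under 15 alternatives, 99 kept direction and side of the threshold, 7 passed it and 14 changed sign. Signs changed for *Plin2*, *Plin4*, *Plin5* and *Cidec*, and *Plin2* was also called without L1L2-FF replicate 3. *Plin4* gave -0.0414 with upper-quartile factors, -0.0405 with library size alone, -0.00606 with the 20 most abundant genes left out and -0.00116 with at least 10 counts in every library, and *Cidec* gave 0.00234 with DESeq2 size factors and 0.00399 in DESeq2. With 1 library left out, log2 fold changes ran from -0.18 to 0.21 for *Plin4*, -0.11 to 0.14 for *Cidec*, -0.12 to 0.24 for *Plin5*, -0.0155 to 0.594 for *Plin2* and -0.77 to -0.49 for *Plin1*. The cause was not tested. The mean difference of the *Plin2* share was 3.26 percentage points with all libraries (exact permutation p = 0.4). It ranged from 1.6 to 5.6 in the alternatives run. The difference of the *Plin2* to *Plin1* ratio could not change sign with 1 library left out, because the genotypes did not overlap.

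The replicate numbers are shared by the genotypes, but deviations of same-numbered libraries correlated at 0.188, 0.255 and -0.054 and not every library correlated best with its own number, so the numbers were not read as pairs. With the replicate block 2514 genes were called in place of 2580, 1 of the 8 genes (*Plin1*, -0.66, edgeR adjusted p = 0.0397) and 16 of the other droplet genes in place of 13. At these depths *Fitm1*, *Cideb* and *Hsd17b13* were too low to test.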

Other observations

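Markers of other cell types are given as values beside the droplet genes. Over all genes tested, 9.28% rose and 7.18% fell. Of 8 brown or beige adipocyte markers 2 fell and 0 rose: *Cidea*, described above, and *Cox8b*, a subunit of mitochondrial complex IV, from 60.7 to 20.6 CPM (log2 fold change -1.56, edgeR adjusted p = 0.00597), while *Ucp1*, the uncoupling protein, had 227 and 211 CPM (adjusted p = 0.878). Of 6 markers of lipid-laden macrophages 2 rose, among them the tetraspanin *Cd9*, from 57.8 to 113 CPM (0.96, adjusted p = 0.029). That list also holds *Lpl* and *Cd36*, which are on the mature adipocyte list as well. Their means were 11700 and 4000 CPM in L1L2-FF and 16900 and 3010 CPM in L1L2-AKO. The sum of the list, 12050 to 18230 CPM in L1L2-FF and 17100 to 23300 CPM in L1L2-AKO, is mostly theirs.

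Of 7 Schwann cell markers 4 fell and 1 rose, with *Mbp*, of the myelin sheath, falling from 217 to 94.7 CPM (-1.20, adjusted p = 0.0427) and *Pmp22* rising from 446 to 902 CPM (1.02, adjusted p = 0.0304). Mural markers moved both ways, with *Rgs5* falling from 550 to 236 CPM (-1.22, adjusted p = 0.0188) and *Notch3* rising from 123 to 230 CPM (0.90, adjusted p = 0.0136). Of 8 progenitor markers 1 fell, with a median of -0.34. None of 8 endothelial and 5 red cell markers was called in edgeR, with medians of -0.45 and -0.23. The unadjusted p was under 0.05 for 1 endothelial and 0 red cell markers, and DESeq2 and limma-voom called 0 of either.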
